A study of Mus musculus with 2 samples.

Results

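A set of 44 genes of the contractile apparatus of striated muscle, of 55414 counted, was followed in nuclei of C2C12, a line of mouse myoblasts that can be induced to form contracting myotubes. The genes were chosen by name, though with earlier results of these data known. They encode proteins of the sarcomere, of excitation and calcium handling, of the dystrophin complex and of cell fusion. There were 2 groups, with 1 library each. The standard library came from methanol-fixed nuclei of growing C2C12 cells taken through droplet-based single-nucleus RNA-sequencing. The in situ polyadenylated library, called tailed below, came from the same kind of nuclei after treatment with yeast poly(A) polymerase, which extends RNA ends with adenines and so lets oligo(dT) prime RNAs that lack a natural tail. The standard nuclei went through neither the warm incubation of that reaction nor the wash and pelleting that followed it. The enzyme, the incubation and that handling therefore cannot be told apart. The cells were grown to near confluence, and no differentiation step is described for them. The questions were which muscle genes were already on in these nuclei, and whether they were found together.

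A sarcomere is the repeating unit of a muscle fibre, in which myosin thick filaments slide past actin thin filaments between 2 Z-discs, while titin spans from the Z-disc to the middle of the thick filament. Troponin and tropomyosin on the thin filament make sliding depend on calcium, which the ryanodine receptor releases from the sarcoplasmic reticulum once a voltage sensor in the membrane responds. Myoblasts divide as single cells with little of this machinery. After they leave the cell cycle they switch on the sarcomere genes, embryonic myosin among the first, and fuse through the membrane proteins myomaker and myomerger.

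Counts are UMIs (unique molecular identifiers, each marking 1 captured RNA molecule) assigned to genes by alignment to the genome, summed over the barcodes with more than 750 UMIs in the companion transcript-based table. That left 1123 standard nuclei with 6237950 UMIs, a median of 4478 per nucleus, and 1328 tailed nuclei with 11545281 UMIs, a median of 6787.5. No barcode was shared by the nuclei of the libraries. In the tailed library 65.1% of UMIs lay in Peak1, in ENSMUSG00002076173 (a gene known only by this identifier) and in annotated rRNA genes. The standard library had 14.0% there, so a share of all UMIs is not comparable between the libraries. These genes are together called rRNA-like below. Whether the reads of Peak1 and ENSMUSG00002076173 came from rRNA was not tested. Of 8 myoblast markers, 7 were over 3 UMIs in each library, led by Ncam1, Des and Itga7, and Myod1 had 60 UMIs in standard and 54 in tailed nuclei, whereas Msc had 1 in each. Of the 5 heart markers, which summed to 131 UMIs in standard and 135 in tailed nuclei, Tnni3 had 80 and 68, Ryr2 49 and 61 and Myh6 2 and 5, and Nppa was at 0 in each. Among immune markers Ptprc, which defines these cells, had 6 UMIs in each library and Cd68 27 and 8. Cd3e, another of them, had 11 UMIs in standard and 1403 in tailed nuclei, with 0 in the transcript-based table of either. Intervals are exact 95% intervals for counting error alone. Each group had a single library, so there was no test, and nuclei did not stand in for replicates.

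Among the 44 members, 39 in standard nuclei and 40 in tailed nuclei had more than 3 UMIs, the limit that a count of 0 allows. Over all 21627 protein-coding genes the share was 65.3% and 66.4%. Together the members held 14408 UMIs in standard and 10557 in tailed nuclei, which was 0.231% and 0.0914% of all UMIs. Titin gave 6335 and 5442 of these. Without the rRNA-like genes in the total, the members' share was 0.269% in standard and 0.262% in tailed nuclei. The members at or under 3 UMIs in at least 1 library were Myh2 (3 standard, 4 tailed), Myh8 (3 and 2), Myl2 (1 and 3), Mymx (2 and 3) and Xirp1 (0 and 0). The number of members over 3 UMIs depended on the count used. With the transcript-based table it was 27 in each library. At a minimum of 1500 UMIs per nucleus it was 30 in standard and 38 in tailed nuclei, and at 500 it was 42 and 41.

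**Figure D1:**
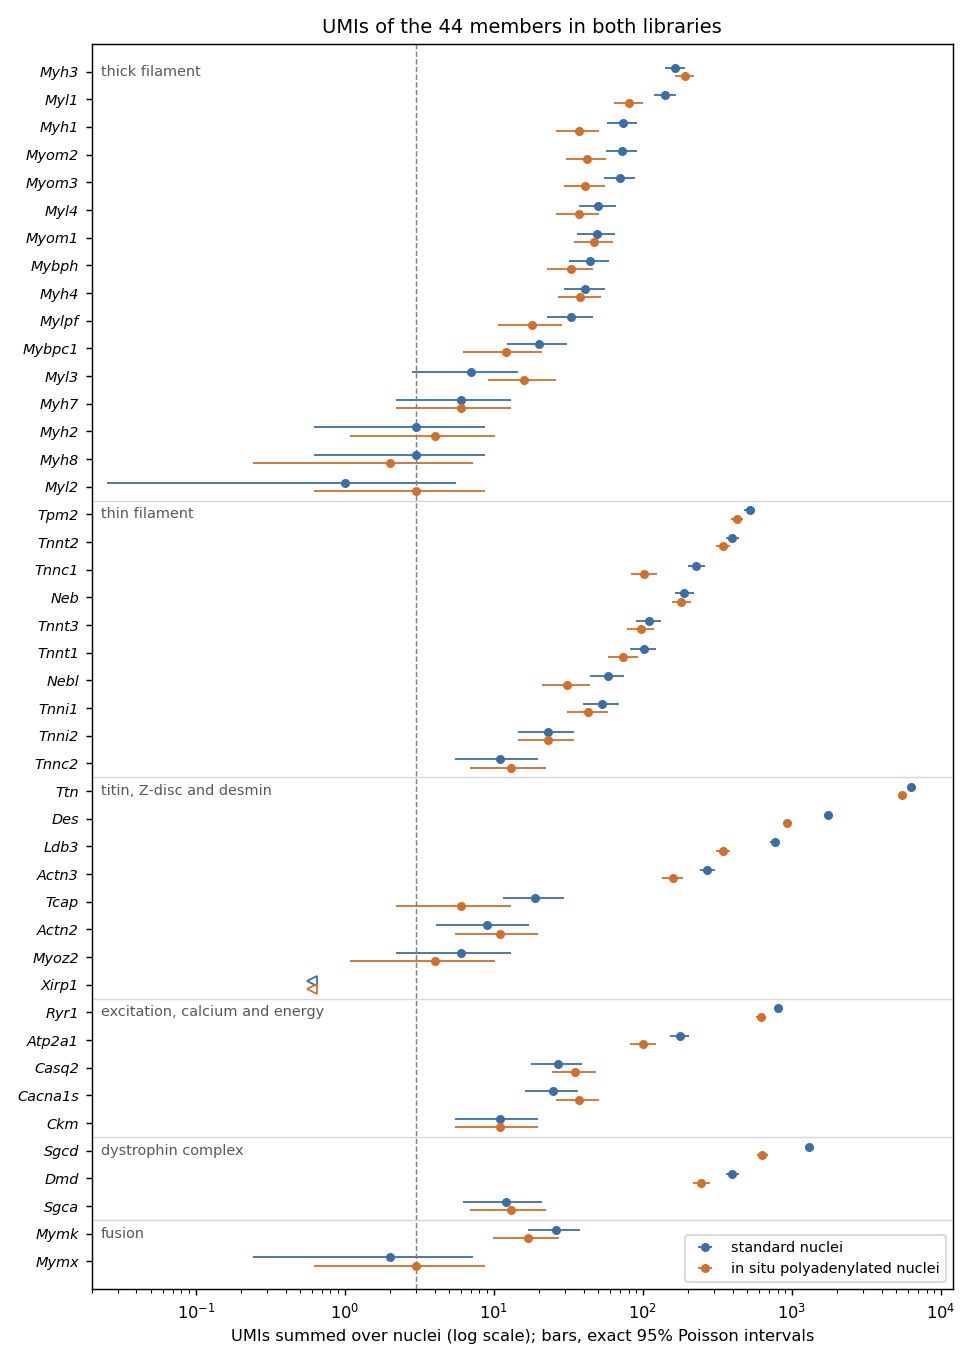
UMIs of each of the 44 members (x axis, log scale) summed over 1123 standard nuclei (blue) and 1328 tailed nuclei (orange), ordered by role, with exact 95% Poisson intervals. The dashed line marks 3 UMIs, and open arrowheads stand for a count of 0. Ttn leads with 6335 and 5442 UMIs, and Xirp1 has none.

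The promoters of 4 members are shown as examples from both sides of the pattern described below: Myh3, Myl1 and Myh1 were packed into a few nuclei, and Des was spread over many. They are not its extremes. Myh4 was more packed than Myl1 and Myh1, and Tpm2 was more evenly spread than Des. The Myh4 window, not shown, holds 2 E-boxes, 1 MEF2 consensus and 1 CArG box. Each run is the 250 bases before the RefSeq start, 5′ to 3′, from the RefSeq table built on GRCm38.p6 and placed on GRCm39 by an exact match, with capitals for an E-box (CANNTG, the core that MyoD family proteins bind), the MEF2 consensus or the CArG box.
Myh3 (chr11:66968876-66969125, plus strand): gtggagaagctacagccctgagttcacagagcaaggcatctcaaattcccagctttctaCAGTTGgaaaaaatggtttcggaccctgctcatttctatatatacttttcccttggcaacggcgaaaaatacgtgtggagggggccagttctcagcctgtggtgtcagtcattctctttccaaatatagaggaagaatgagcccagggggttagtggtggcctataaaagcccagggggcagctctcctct
Myl1 (chr1:66984216-66984465, minus strand): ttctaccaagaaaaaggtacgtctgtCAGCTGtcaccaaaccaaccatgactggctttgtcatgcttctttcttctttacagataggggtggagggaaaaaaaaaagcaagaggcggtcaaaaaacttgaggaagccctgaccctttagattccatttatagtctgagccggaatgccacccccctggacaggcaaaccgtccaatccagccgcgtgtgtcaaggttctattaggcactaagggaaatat
Myh1 (chr11:67090678-67090927, plus strand): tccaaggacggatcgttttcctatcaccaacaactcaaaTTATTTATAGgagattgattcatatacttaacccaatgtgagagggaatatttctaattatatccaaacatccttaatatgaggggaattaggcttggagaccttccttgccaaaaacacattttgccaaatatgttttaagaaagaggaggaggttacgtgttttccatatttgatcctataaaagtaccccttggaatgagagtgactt
Des (chr1:75336686-75336935, plus strand): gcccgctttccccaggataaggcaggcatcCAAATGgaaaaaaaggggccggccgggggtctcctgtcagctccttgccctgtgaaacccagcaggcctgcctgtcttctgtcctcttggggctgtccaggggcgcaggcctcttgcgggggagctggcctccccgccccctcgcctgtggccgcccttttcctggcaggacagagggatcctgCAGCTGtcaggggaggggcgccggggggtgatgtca
The Des window holds 2 E-boxes, the Myh3 and Myl1 windows 1 each, and the Myh1 window a MEF2 consensus and no E-box. In the GENCODE annotation the window of Myh3 ends at the base before the gene, while those of Des, Myh1 and Myl1 lie inside the annotated gene, which has starts further upstream.

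Promoter windows were found for 35 of the 44 members, 44 windows in all. The E-box CAGCTG stood in 15 of them, or 34.1%, against 13.0% of all 32851 windows of the same length. Any E-box stood in 79.5% against 66.2%, the MEF2 consensus in 8 windows (18.2% against 2.92%) and the CArG box in 7 (15.9% against 1.47%). All motifs read the same on both strands, CAGCTG is also counted as CANNTG, and a match is a description of the letters. Myh4 and Dmd were the members with both a MEF2 consensus and a CArG box in 1 window.

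The thick filament carries the myosin motors. Myh3, the embryonic heavy chain, had 165 UMIs in 32 standard nuclei and 191 UMIs in 33 tailed nuclei. The adult fast chains Myh1 and Myh4 were lower, Myh1 with 73 UMIs in 24 nuclei and 37 in 17, and Myh4 with 41 UMIs in 10 nuclei and 38 in 10. Myh7, the slow chain shared with the heart, had 6 UMIs in each library, while the fast chain Myh2 and the perinatal chain Myh8 stayed at 4 or fewer. Myh1, Myh2, Myh3, Myh4 and Myh8 lie side by side on chromosome 11 and are near copies, so reads could be split among them.

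The light chains sit on the myosin neck. Myl1, the fast essential light chain, had 141 UMIs in 62 standard nuclei and 81 in 33 tailed nuclei. Myl4, the embryonic and atrial light chain, had 50 and 37 UMIs, Mylpf, the fast regulatory chain, 33 and 18, and the slow chain Myl3 7 and 16. Members that brace the filament were present at a like level, with 49 and 47 UMIs for Myom1, 72 and 42 for Myom2 and 70 and 41 for Myom3, which cross-link myosin at the M-band. The myosin-binding proteins Mybph and Mybpc1 had 44 and 33, and 20 and 12 UMIs. Per kilobase of gene body, Myh3 (6.88 standard, 7.96 tailed) and Myl1 (6.65 and 3.82) were the highest of the 16 thick filament genes in standard nuclei, yet 25.4% and 26.1% of protein-coding genes were higher there.

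All 10 thin filament members were over 3 UMIs in both libraries. Tpm2, the beta-tropomyosin, had 520 UMIs in 384 standard nuclei and 427 in 329 tailed nuclei, and Tnnt2, the cardiac troponin T that early skeletal muscle also makes, 398 in 287 and 345 in 251. The adult troponin T genes were lower, with 101 and 74 UMIs for slow Tnnt1 and 109 and 97 for fast Tnnt3. The inhibitory subunits had 53 and 43 UMIs (slow Tnni1) and 23 and 23 (fast Tnni2). Tnnc1, the slow calcium-binding subunit, had 228 and 102, and the fast Tnnc2 11 and 13. Tnnc1 lies wholly on the opposite strand of Nisch. The sources used here do not state the strand setting of the genome-based counting, so its reads cannot be told apart from those of Nisch in that count. The strand-aware transcript-based table held 61.8 and 21.3 estimated UMIs of Tnnc1. The same limit touches Mymk inside Adamtsl2 and, over part of their length, Actn3, Atp2a1, Mybph, Myl3, Myl4, Mylpf, Myom1, Tnnt3, Tnnc2, Sgca, Dmd and Myl2.

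Nebulin runs along the thin filament as its ruler. Neb had 190 UMIs in 60 standard nuclei and 181 in 58 tailed nuclei. Its relative Nebl, found at the Z-disc of the heart and in other cells, had 58 in 52 and 31 in 30.

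Ttn, at chr2:76534136-76812891 on the minus strand of GRCm39, was the most counted member, with a UMI in 695 standard nuclei (61.9%) and 651 tailed nuclei (49.0%). Its UMIs were uneven, and 1 standard nucleus held 202 and 1 tailed nucleus 464. Des, the muscle intermediate filament that ties Z-discs together, had 1752 UMIs in 752 standard nuclei and 931 in 566 tailed nuclei, with at most 15 and 17 in any nucleus. Ldb3, a Z-disc scaffold, had 767 in 492 and 345 in 280, and Actn3, the fast alpha-actinin, 271 in 205 and 158 in 136. The remaining Z-disc genes were scarce: Actn2, the alpha-actinin of all striated muscle, had 9 and 11 UMIs, Tcap (telethonin, which caps titin) 19 and 6, and Myoz2, which binds calcineurin at the Z-disc, 6 and 4. Xirp1, an actin-binding protein, had 0 here and 4 and 5 estimated UMIs in the transcript-based table.

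On the scale of UMIs per kilobase of gene body in standard nuclei, Des was highest at 70.9, before Tnnc1 (65.6, with the strand limit above), Tpm2 (50.7), Tnnt2 (24.0), Ttn (22.7), Tcap (16.6), Actn3 (15.7) and Ldb3 (11.9). On that scale 1.31% of protein-coding genes were above Des, and 7.32% above Ttn. Tailed nuclei had Des at 37.7, Tpm2 at 41.6, Tnnc1 at 29.3, Tnnt2 at 20.8 and Ttn at 19.5, so Tpm2 stood above Des there.

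Of the excitation and calcium genes, Ryr1, the calcium release channel, had 807 UMIs in 405 standard nuclei and 619 in 352 tailed nuclei. Atp2a1, the pump that returns calcium to the store, had 177 and 100 UMIs. Cacna1s, the voltage sensor that opens Ryr1, had 25 UMIs in 14 standard nuclei and 37 in 33 tailed nuclei, and Casq2, which holds calcium in the store, 27 in 16 and 35 in 32. Ckm, the muscle creatine kinase that marks mature fibres, had 11 in each library.

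Dmd (dystrophin, which links the cytoskeleton to the membrane) and Sgcd (delta-sarcoglycan of its complex) had 397 and 1296 UMIs in standard and 247 and 634 in tailed nuclei, but they are among the longest genes. Per kilobase, Dmd stood at 0.176 and Sgcd at 1.19 in standard nuclei, and 62.5% and 47.8% of protein-coding genes were above them. The long neuronal genes used as a comparison list had a median of 0.130 per kilobase there. The transcript-based table held 5.04 and 8 estimated UMIs of Dmd and Sgcd, so the genome-based count was 78.8 and 162 times higher, whereas for Des it was 2.75 times. Sgca, the alpha-sarcoglycan found in muscle alone, had 12 and 13 UMIs.

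The fusion genes had few UMIs. Mymk (myomaker) had 26 UMIs in 23 standard nuclei and 17 in 17 tailed nuclei. Mymx (myomerger) had 2 and 3, within what a count of 0 allows.

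Free RNA was gauged from 226358 standard and 229964 tailed barcodes with 1 to 100 UMIs in the transcript-based table. Ttn made up 0.168% of UMIs in standard nuclei and 0.0463% in the low barcodes, a log2 ratio of 1.86 (interval 1.76 to 1.97), and in tailed nuclei the log2 ratio was 1.49 (1.37 to 1.61). Des was lower in standard nuclei than in those barcodes, with a log2 ratio of −0.22 (−0.36 to −0.08), and in tailed nuclei the ratio was 0.16 with an interval that included 0. The members without Ttn and Des were at 0.20 (0.09 to 0.31) and 0.42 (0.27 to 0.56). Gene by gene, 12 of 21 members in standard and 11 of 16 in tailed nuclei were higher in nuclei than in those barcodes. These members had at least 20 UMIs in nuclei and low barcodes together. As shares of UMIs, Tnnc1 and Actn3 were lower in nuclei than in low barcodes in both libraries. Tnnt2 and Tpm2 were lower in standard and higher in tailed nuclei. What part of the count of Des or of any other member in nuclei was free RNA was not tested.

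The members also differed in how their UMIs were spread. For each gene the number of nuclei with a UMI was compared with the number that would have one if its UMIs had fallen on nuclei in proportion to depth. Myh3 was found in 0.21 of that number in standard and 0.19 in tailed nuclei. The ratios were 0.25 and 0.27 for Myh4, 0.34 and 0.47 for Myh1, 0.35 and 0.35 for Neb, and 0.48 and 0.43 for Myl1. Ttn stood between at 0.63 and 0.52. Des (0.91 and 0.93), Ldb3 (0.95 and 0.97), Sgcd (0.93 and 1.00) and Tpm2 (0.98 and 0.96) were close to an even spread.

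Of the 28 members with 20 or more UMIs in each, 5 were under a ratio of 0.5 in each library, the 4 myosin genes above and Neb. Among all 10205 protein-coding genes at that minimum, 6 were under 0.5 in standard nuclei (0.0588%) and 5 in tailed nuclei (0.049%), and these 5 members made up all of them but 1, Scml2, a chromatin gene. The median over all those genes was 0.977 and 0.991. Across the 28 members the ratios of the libraries correlated with Pearson 0.856 and Spearman 0.805, as a description over genes counted in the same nuclei. Without the 5% deepest nuclei, 5 and 4 members stayed under 0.5, and Myl1 was at 0.60 in tailed nuclei.

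**Figure D2:**
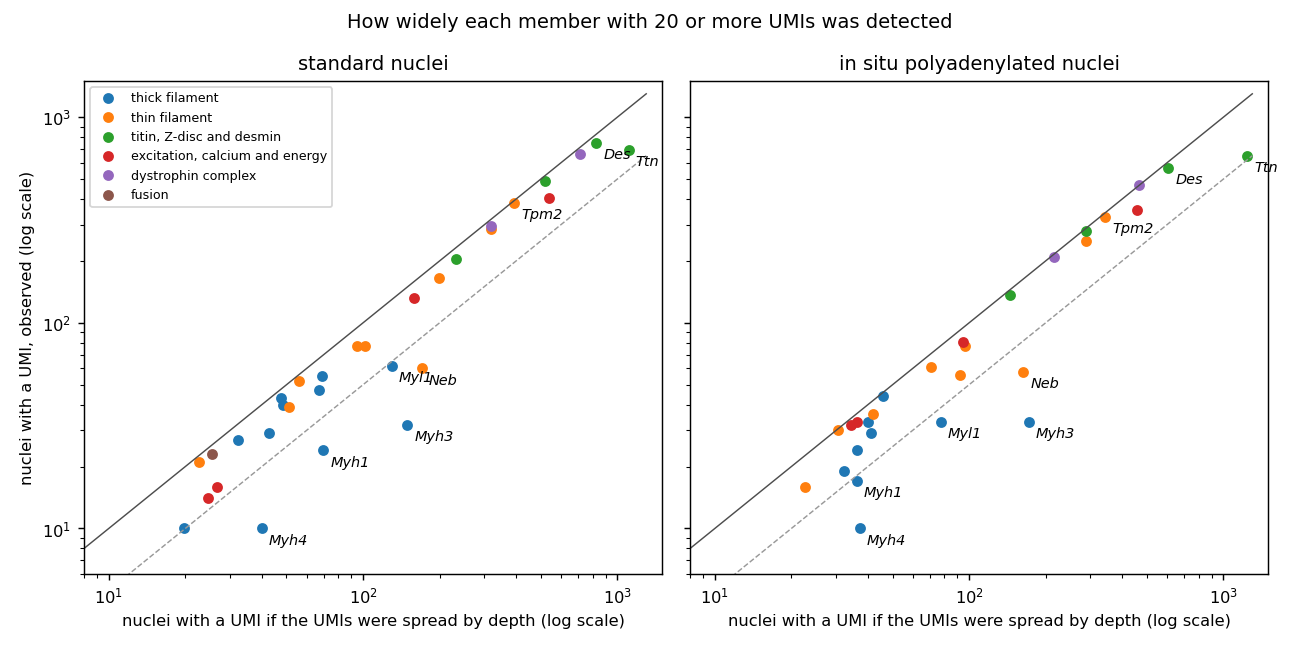
Nuclei with a UMI of each member (y axis, log scale) against the number expected if its UMIs were spread over nuclei by depth (x axis, log scale), for members with at least 20 UMIs, colored by role. The solid line is an even spread and the dashed line 0.5 of it. Myh1, Myh3, Myh4, Neb and Myl1 lie below the dashed line in both panels, and Des and Tpm2 lie close to the solid one.

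Some nuclei held more members than independent genes would give. Without thinning, a mean of 4.74 members was found per standard nucleus and 3.08 per tailed nucleus, and at 2000 UMIs in every nucleus the means were 2.46 and 1.03. Without the rRNA-like genes in those 2000 UMIs they were 2.78 and 2.38. At least 10 members were found in 61 standard nuclei, where independent genes within 10 strata of depth would give 19.4, and in 26 tailed nuclei, against 10.9. Depth here included the UMIs of rRNA-like genes. At least 15 were found in 23 standard and 13 tailed nuclei, against 0.0106 and 0.0138 expected, and the fullest nuclei had 32 and 29 of the 44. After thinning to 2000 UMIs, at least 10 were found in 18 standard and 5 tailed nuclei, against 0.0102 and 2.27e-06 expected. The variance of the number per nucleus was then 5.14 against 1.87 expected in standard and 1.94 against 0.913 in tailed nuclei. The nuclei with at least 10 members were 5.43% and 1.96% of all. They were deeper than the rest, with medians of 7094 against 4444.5 UMIs in standard and 18307 against 6729 in tailed nuclei. Doublets were not called.

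**Figure D3:**
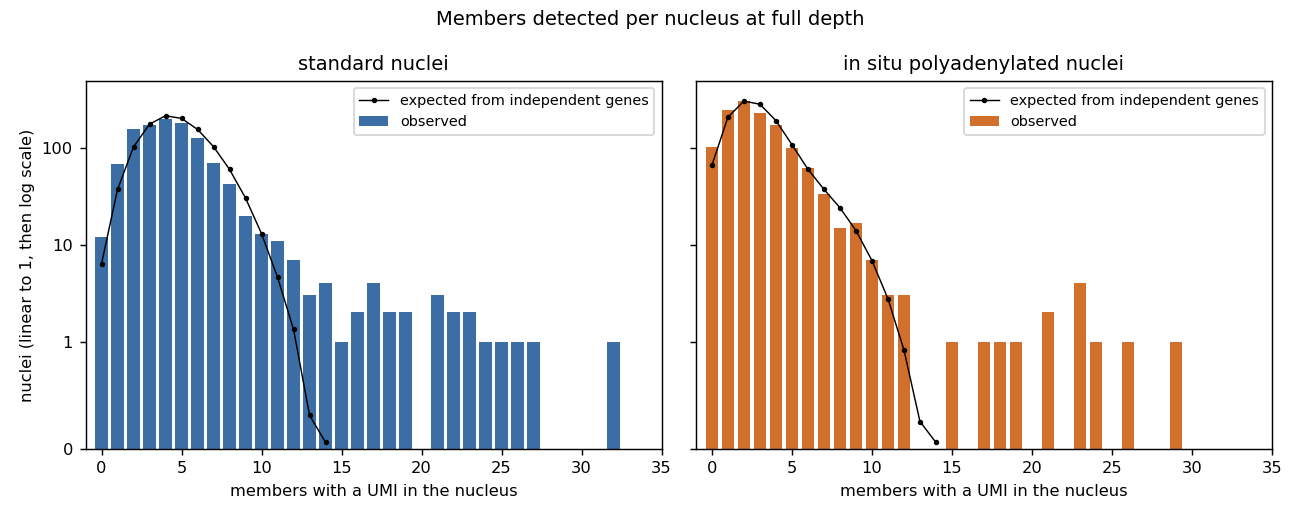
Number of the 44 members with a UMI in a nucleus (x axis) and number of nuclei (y axis, linear to 1 and then log), observed (bars) and expected from independent genes within depth strata (black line), at full depth. The observed nuclei run on to 32 members in the standard and 29 in the tailed library, past the point where the expected number nears 0 and its line stops.

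Co-detection was measured pair by pair, as the nuclei with a UMI of both genes over the number expected from independent genes within 10 strata of depth. The standard library had 254 member pairs with at least 5 expected nuclei, with a median ratio of 1.28, and the tailed library 208 pairs with a median of 1.27. The medians over all protein-coding pairs were 1.02 and 1.08. A ratio of 1.5 was reached by 72 standard pairs (28.3%) and 54 tailed pairs (26.0%), against 1.85% and 5.21% of all protein-coding pairs.

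Troponin genes led the strongest pairs in standard nuclei. Myh3 and Tnnc1 were found together in 24 nuclei where 5.04 were expected, a ratio of 4.76. Tnnt1 and Tnnt3, the slow and fast troponin T, shared 25 nuclei against 5.70 expected (4.38). The next 8 were Tnni1 with Tnnc1 (3.30), Neb with Tnnc1 (3.14), Myl1 with Tnnc1 (3.03), Tnni1 with Atp2a1 (2.94), Tnnc1 with Myom3 (2.92), Tnnc1 with Myom2 (2.67), Myom3 with Atp2a1 (2.67) and Myl1 with Atp2a1 (2.65). Tnnc1 was in 6 of these 10 pairs, and its reads in this count cannot be told apart from those of Nisch, as stated above.

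In tailed nuclei the highest ratio was that of Tnnt2 with Mybph, which shared 15 nuclei against 5.45 expected (2.75). It was followed by Mylpf with Ryr1 (2.40), Myh1 with Tnnt2 (2.28), Mybph with Ryr1 (2.27), Mybph with Ldb3 (2.25), Tnni1 with Ldb3 (2.14), Tnnt1 with Atp2a1 (2.07), Tpm2 with Mybph (2.00), Myh1 with Ryr1 (1.98) and Tnni2 with Ryr1 (1.96). The minimum of 5 expected nuclei left out most pairs of 2 scarce genes. With at least 1 expected, an alternative added after seeing the data, the medians were 1.55 over 476 standard and 1.53 over 435 tailed pairs, and Myh3 with Myl1 shared 19 nuclei against 1.83 expected in the standard and 11 against 1.03 in the tailed library.

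Des paired little with other widely found members. Des and Ttn shared 494 standard nuclei against 479 expected, Des and Tpm2 273 against 271, and Des and Sgcd 484 against 467. In tailed nuclei the ratios of these pairs were 1.03, 0.99 and 1.06. Other widely found pairs stood higher, such as Ttn with Ryr1, which shared 313 standard nuclei against 260 expected (1.20) and 253 tailed nuclei against 193 (1.31). Tpm2 with Ldb3 was at 1.02 in standard and 1.20 in tailed nuclei.

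**Figure D4:**
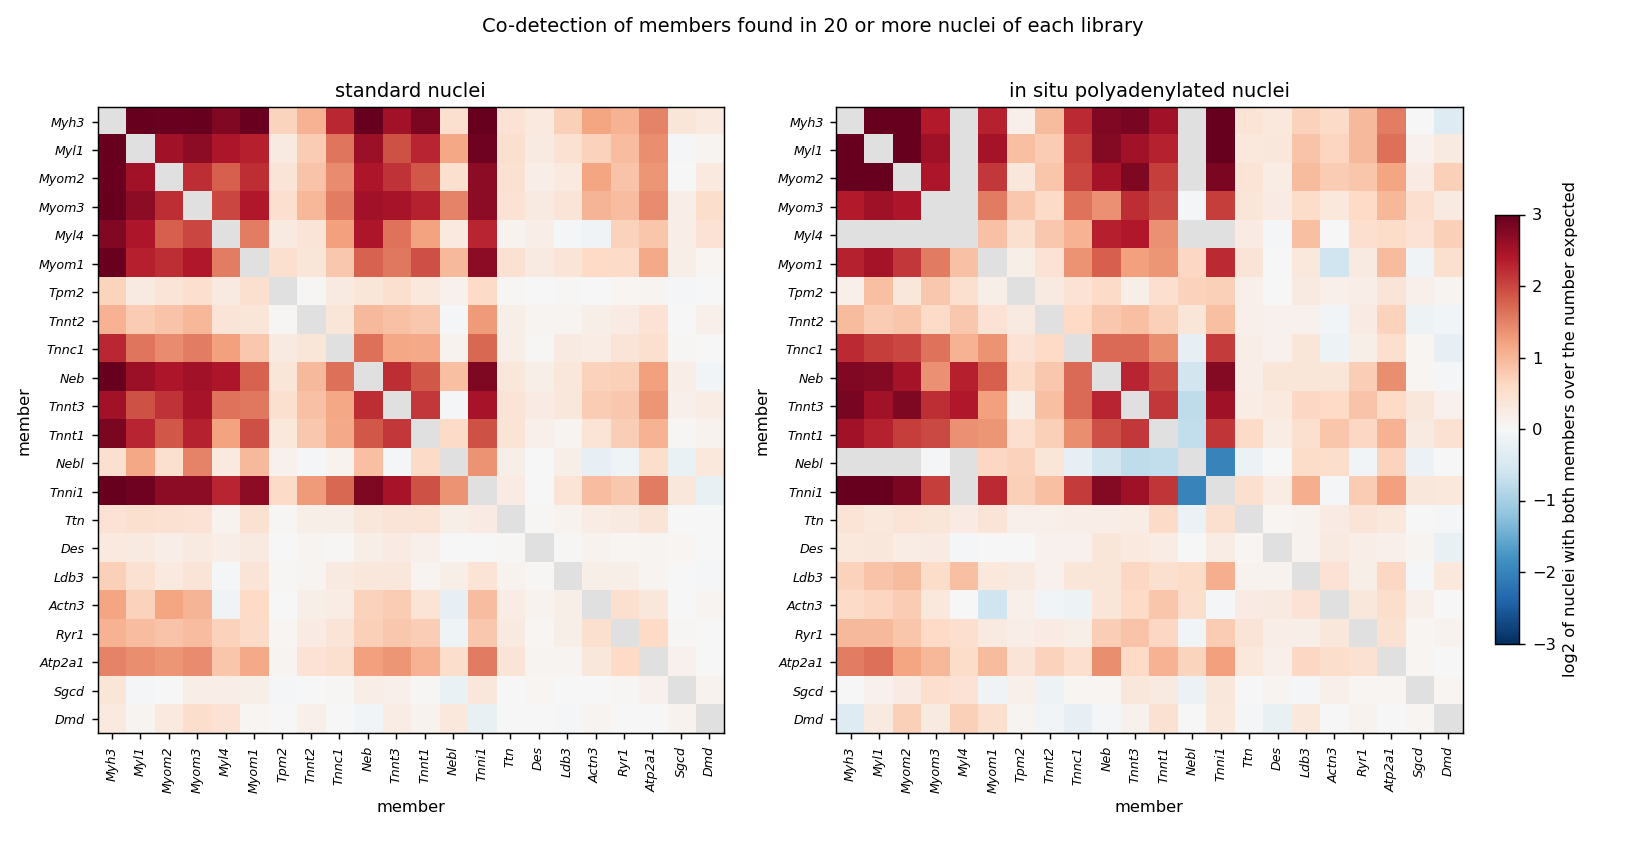
Co-detection of the 22 members found in at least 20 nuclei of each library, ordered by role, as log2 of the nuclei with both genes over the number expected (color, from −3 to 3). Grey marks the diagonal and pairs with under 1 expected nucleus. A red block joins the myosin, myomesin, troponin and nebulin genes in both libraries, while Des, Sgcd and Dmd stay near 0 with most others. Widely found genes such as Des and Sgcd cannot reach ratios as high as those of scarce genes. Over all member pairs with at least 1 expected nucleus, Tpm2 had a median ratio of 1.26 in standard and 1.43 in tailed nuclei. That of Des was 1.16 and 1.17.

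Nuclei with a Myh3 UMI, a split chosen after seeing its spread, were 32 of the standard and 33 of the tailed nuclei (2.85% and 2.48%). They held 3.17% and 3.21% of all UMIs but 26.2% and 29.5% of the members' UMIs. Leaving Ttn and Myh3 out, the members' share in these nuclei was 15.4% and 17.5%. Their median depth was 4339.5 UMIs against 4484 in the other standard nuclei, and 8506 against 6737 in tailed nuclei. Of the members with at least 20 UMIs in the nuclei without Myh3, 17 of 21 in standard and 18 of 22 in tailed nuclei were over 2-fold higher in those with it, against 5.54% and 8.42% of protein-coding genes at that minimum. The other members did not reach it. The medians were 3.14 and 2.95 on the log2 scale for these members, and −0.12 and −0.11 for the protein-coding genes.

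In standard nuclei those 32 nuclei held 62 of 73 Myh1 UMIs, 33 of 41 Myh4 UMIs, 126 of 190 Neb UMIs and 2395 of 6335 Ttn UMIs. In tailed nuclei the 33 nuclei held 29 of 37 Myh1 UMIs, 34 of 38 Myh4 UMIs, 131 of 181 Neb UMIs and 2063 of 5442 Ttn UMIs. In the nuclei without Myh3, Myh1 and Myh4 had 11 and 8 UMIs in standard and 8 and 4 in tailed nuclei, under the minimum above. Both are near copies of Myh3, and Myh3 reads assigned to them would fall in nuclei chosen by Myh3. Their counts there therefore cannot be told apart from split reads. As log2 ratios of a gene's share of UMIs, Ttn was 4.21 higher (4.14 to 4.29) in standard and 4.20 higher (4.12 to 4.28) in tailed nuclei with Myh3. Des was 0.82 (0.51 to 1.12) and 1.00 (0.59 to 1.39) higher, and Sgcd 0.10 and 0.05 with intervals that included 0. Mymk had 13 of its 26 standard UMIs and 3 of its 17 tailed UMIs there. Without these nuclei, an alternative added after seeing the data, the median co-detection ratio was 1.11 in standard and 1.10 in tailed nuclei. Over all protein-coding pairs of the same nuclei it was 1.02 and 1.08. Pairs with Myh3 were left out, as were pairs that then had under 5 expected nuclei. The member medians are therefore over fewer pairs than the 254 and 208 above, and not over the same ones. A ratio of 1.5 was reached by 21 of 197 standard pairs (10.7%), against 1.85% of all protein-coding pairs. In tailed nuclei it was reached by 9 of 161 pairs, and that 5.59% was near the 5.25% of all protein-coding pairs.

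Regulators of the muscle program were read in the same nuclei. Of the 10 with a UMI, 7 in each library shared more nuclei with Myh3 than expected and 3 fewer, some by less than 1 nucleus. Myog and Mef2c are described first, a choice made after their values were seen. Myog (myogenin, the factor that starts terminal differentiation) had a UMI in 14 standard nuclei, and 7 of them also had Myh3, where 0.401 were expected. In tailed nuclei 5 of its 11 did, against 0.498. Mef2c, a partner of myogenin, shared 8 nuclei with Myh3 against 1.30 expected, and 6 against 0.732. For Myod1, which marks myoblasts before and during differentiation, the counts were 4 against 1.83 and 2 against 1.54, and for Myf5, which marks the undifferentiated state, 1 against 1.18 and 0 against 0.686. Mef2a, a widely expressed MEF2 factor, shared 29 against 20.2 and 16 against 8.87, and Mef2d 15 against 14.5 and 10 against 9.97. The muscle progenitor factors were at 6 against 6.67 and 2 against 3.28 (Pax3), and 2 against 1.74 and 3 against 1.79 (Pax7). Six4 was at 2 against 5.56 and 2 against 3.48, and Myf6 was at 0 in both libraries. The skeletal actin Acta1, no member, had 25 of its 42 standard UMIs and 26 of its 59 tailed UMIs in the nuclei with Myh3.

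Of the 13 genes of dividing cells, 11 in standard and 12 in tailed nuclei shared fewer nuclei with Myh3 than expected. The exceptions were Aspm (14 against 13.3) and Mcm3 (4 against 3.60) in standard nuclei, and Mcm3 (4 against 2.72) in tailed nuclei. For shared nuclei, no share over all genes is given for this list or the regulators. These counts are therefore not read as particular to either list. By UMIs, 6509 of 11057 protein-coding genes in standard and 5924 of 10578 in tailed nuclei were also lower in nuclei with Myh3. These had at least 20 UMIs in the other nuclei. UMIs of 4 of the 13, chosen after their values were seen, were read in the same split. The log2 ratio of nuclei with Myh3 over the others was −0.69 (−1.08 to −0.32) for Top2a, the topoisomerase of dividing cells, and −0.56 (−1.03 to −0.13) for Cenpf, a kinetochore gene, in standard nuclei, −0.17 (−0.48 to 0.12) for Mki67 and −0.35 (−0.83 to 0.09) for Pola1. In tailed nuclei they were at −0.36, −0.69, −0.28 and −0.64, in the same order, with intervals that included 0. Mki67 had a UMI in 24 of the 32 standard and 18 of the 33 tailed nuclei with Myh3.

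Last, the libraries were set side by side. The median log2 ratio of CPM (UMIs of a gene scaled to the same total in both libraries), tailed over standard, was −1.92 over 7752 protein-coding genes with 50 or more UMIs in each, so each gene is given relative to that median. Of 37 members with 20 or more UMIs over both libraries, 34 were above it and 3 below, and the median was 0.62, beside 0.08 over all 13858 genes at that minimum. More than 2-fold above were 9 members, where 15.9% of all genes were, and more than 2-fold below were 0, where 2.81% were.

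By role, the median relative log2 ratio was 0.45 for 12 thick filament genes and 0.79 for 10 thin filament genes. It was 0.19 for 6 genes of titin, Z-disc and desmin and 0.35 for 3 of the dystrophin complex. The 5 genes of excitation, calcium and energy had a median of 1.03. That is the value of Ckm, with 11 UMIs in each library and an interval of −0.31 to 2.38. With UMIs summed over all genes of a role, the ratio was 0.65 for excitation, 0.68 for thick and 0.69 for thin filament. Myh3 was at 1.24 (0.94 to 1.55), Neb at 0.96 (0.66 to 1.27), Ttn at 0.81 (0.76 to 0.87), Tpm2 at 0.75 (0.56 to 0.94) and Ryr1 at 0.65 (0.50 to 0.80). Myl3 (2.23), Cacna1s (1.60) and Casq2 (1.41) were higher on few UMIs. Des stood at 0.12 (0.01 to 0.24), Sgcd at 0.00 (−0.14 to 0.14) and Ldb3 at −0.12 (−0.31 to 0.07), and Tnnc1 and Tcap were the other members below 0, at −0.13 and −0.63.

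**Figure D5:**
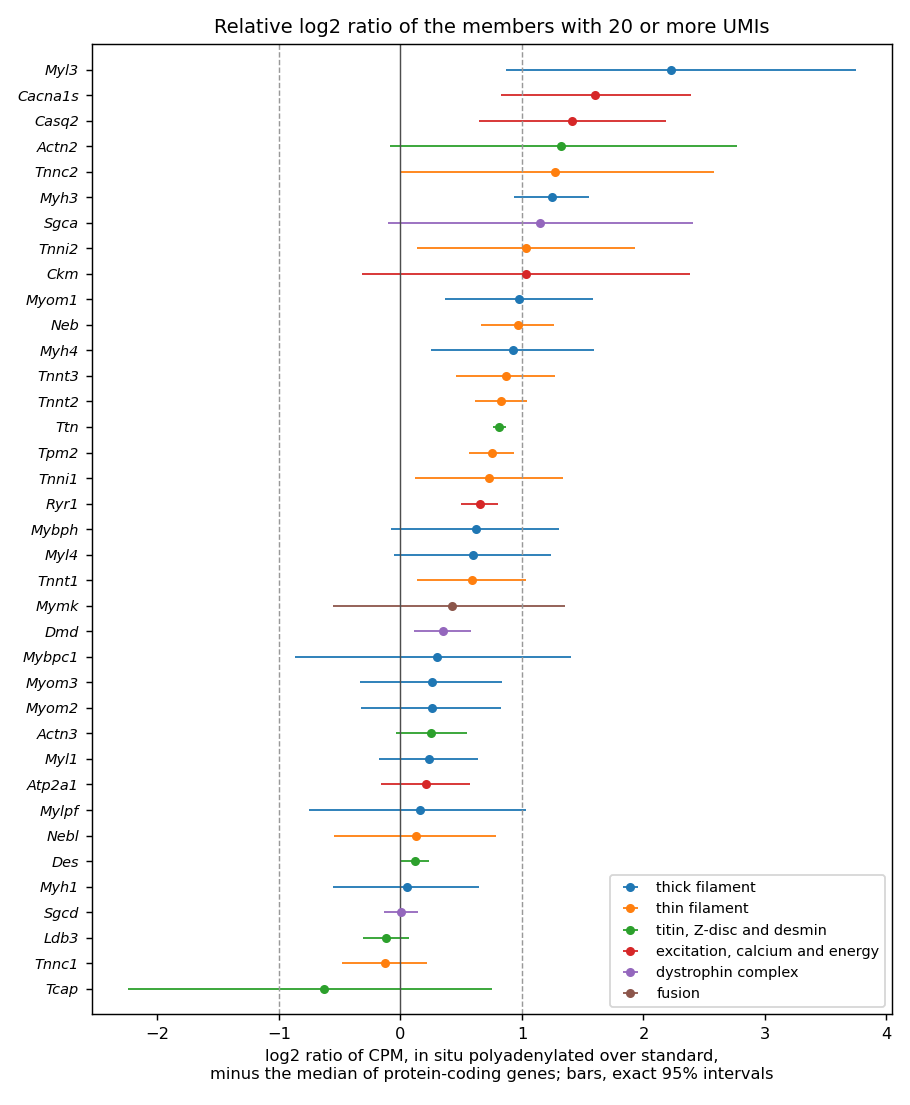
Log2 ratio of CPM, tailed over standard, minus the median of protein-coding genes (x axis), for the 37 members with 20 or more UMIs over both libraries, with exact 95% intervals and colors for roles. Dashed lines mark 2-fold. Most members lie right of 0, from Tcap at −0.63 to Myl3 at 2.23. The 9 past 2-fold include genes with few UMIs and wide intervals.

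In plain CPM every gene is lower by the same 1.92 on the log2 scale, which leaves the members' place among other genes as it was. There the members' median was −1.30, and 25 of the 37 were more than 2-fold below, where 83% of all genes were, and 0 more than 2-fold above, where 4.39% were. Relative to the protein-coding median again, members with at least 100 UMIs had a median of 0.26, and 1 was past 2-fold. Of the 29 members compared in the transcript-based table, 10 were on the other side of 0, namely Mylpf (−1.64), Sgcd (−1.32), Myom1 (−0.58), Myh1 (−0.52), Myl1 (−0.49), Actn3 (−0.27), Des (−0.14), Cacna1s (−0.12), Atp2a1 (−0.07) and Dmd (−0.05). Ttn (0.49), Neb (0.48), Myh3 (1.05), Tpm2 (0.60) and Ryr1 (0.74) stayed above it. Other lists stood off 0 too, counting genes with at least 20 UMIs over both libraries: the 12 long neuronal genes had a median of 0.85, 37 of 49 other muscle genes (led by Cacna2d1, Ankrd1 and Flnc) 0.45, 13 of 14 non-muscle contractile isoforms (led by Myh9, Actb and Actn1) 0.33, 10 of 11 myogenic regulators (led by Mef2a and Mef2d) 0.26, 7 of 8 myoblast markers 0.25, and the 13 genes of dividing cells (Mki67, Top2a and Cenpe) −0.22. Among these, 6 of the 37 other muscle genes were more than 2-fold above, and 0 of the 10 regulators and 0 of the 13 contractile isoforms were.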

How the data were processed

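The authors trimmed reads with cutadapt 3.4 and aligned them to GRCm39 with STAR 2.7.10a, and the deposited matrices hold whole, unscaled UMI counts for some of the barcodes. They also pseudoaligned reads with kallisto 0.48.0 and bustools 0.41.0 in a strand-aware way, and those deposited matrices hold estimated counts for every barcode. STAR was allowed to keep reads with several matches. The sources used here do not say how it shared them among genes or treated introns and strand in the deposited counts, nor how its barcodes were picked. Introns raise the counts of long genes in nuclei.

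Nuclei were barcodes with over 750 kallisto UMIs and under 5% mitochondrial UMIs, read in the STAR matrix (7 tailed barcodes were absent from it). Doublets were not called. UMIs were summed per gene. Of 55414 genes, 54749 matched GENCODE M39 by identifier, which gave gene bodies and overlaps. Intervals are Poisson, conditional Poisson (ratios) or Clopper-Pearson, at 95%. Thinning drew 2000 UMIs per nucleus. The code recovered known changes on simulated data, with Python 3.11.15, numpy 2.4.6 and scipy 1.17.1. Every member may be named. Pairs named are the 10 with the highest ratio at 5 or more expected nuclei, and of other lists the 3 genes with the most standard UMIs, of which 1 is not reported here. Other genes and pairs, such as Myog, Mef2c, Acta1, Cenpf and Scml2, were chosen after their values were seen. The members and lists were chosen with earlier results of these data known.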

Additional observations from a re-analysis of the deposited data

How the results depend on the processing

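Of the recomputed summary values, 78 stayed within 1.5 times, or within the counting interval for a share, and 22 did not. That limit is wide for some values. In standard nuclei a co-detection median of 1.06 in place of 1.28 counted as staying. So did 27 members over 3 UMIs with kallisto in place of 39. The members' share of UMIs was 0.293% in standard and 0.168% in tailed nuclei with the kallisto matrix, 0.220% and 0.0884% at a minimum of 500 UMIs, 0.191% and 0.0843% at 1500, 0.217% and 0.0822% over all deposited STAR barcodes, and 0.243% without the 5% deepest standard nuclei. Without Peak1, the gene ENSMUSG00002076173 and rRNA genes it was 0.269% and 0.262%, and members per tailed nucleus at 2000 UMIs were 2.38. Members per nucleus were 1.44 and 0.590 when thinned to 1000 UMIs, and 4.74 and 3.08 without thinning. With the kallisto matrix the 2000-UMI setting keeps deep nuclei alone. Members more than 2-fold above the protein-coding median numbered 4 with kallisto, 5 without the deepest nuclei, and 1 at 100 or more UMIs per member. In plain CPM 0 were above and 25 below, with a median of −1.30. Of 29 members compared with kallisto, 15 stayed within their interval and 10 changed sign. Of these 10, the STAR interval excluded 0 for Des (−0.14 with kallisto), Myom1 (−0.58), Cacna1s (−0.12) and Dmd (−0.053), and included it for Mylpf (−1.64), Sgcd (−1.32), Myh1 (−0.52), Myl1 (−0.49), Actn3 (−0.27) and Atp2a1 (−0.07). The cause was not tested. The median co-detection ratio at a minimum of 1500 UMIs was 1.06 in standard and 1.13 in tailed nuclei, over fewer nuclei.

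Members under 0.5 of an even spread numbered 4 of 13 in each library with kallisto (Myh1, Myh3, Neb and Ttn), and 5 in each without rRNA-like genes. These settings, those that drop rRNA-like genes or nuclei with Myh3, and pairs with at least 1 expected nucleus were chosen after seeing the data. No paired analysis was possible because there is a single library in each group. A count of 0 allows up to 3 UMIs.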
